A study of Mus musculus with 10 samples.

Results

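The regions described here lay within 1 kb of an end of 2 or more different protein-coding genes, as at paired or bidirectional promoters. They were taken from the regions over which anti-IKZF2 CUT&RUN reads had been counted in mouse leukaemia cells. A region qualified when it was at most 300 bp wide and lay on an autosome outside chromosome 4 from 3 to 60 Mb. This choice used gene positions and region widths, and no read count. Of 139869 regions on that sequence and of that width (151133 regions in all), 1260 (0.901%) qualified. Another 8609 regions lay near an end of exactly 1 gene and served as the comparison, and 130000 lay near no gene end. The 1260 shared regions covered 1092 different sets of genes and 2087 genes. Of them, 1234 lay near 2 genes, 25 near 3 and 1 near 4. Because 157 gene sets held more than 1 region, with at most 3, the regions were not all separate loci. Their median width was 129 bp (range 90 to 300), against 116 bp for single-gene regions and 108 bp for regions near no gene end.

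The cells were RN2, a C57BL/6 mouse leukaemia line that carries the MLL-AF9 fusion and NRASG12D, into which murine IKZF2 and the marker RFP had been introduced by retrovirus. Transduced cells were sorted and kept in culture for 2 weeks, so all libraries came from cells overexpressing the profiled factor. In CUT&RUN, an antibody recruits a nuclease fused to protein A, here in cells opened with digitonin, and the DNA fragments cut free around the antibody are sequenced. The titles number the 6 samples analysed as 3 libraries with 2 technical replicates each. Another 4 samples, made with a control antibody, were not analysed here, and a region's signal was therefore read only against other regions of the same libraries. No label states whether the libraries were separate cultures, so p-values measure only the spread between these libraries, which may be technical.

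Neighbouring mammalian genes often start close together on opposite strands, and the short stretch between the starts then serves both genes as a promoter. Such paired promoters are usually rich in G, C and CpG, often lack a TATA box, and are common among genes of DNA repair, mitochondria and basic metabolism. IKZF2 (Helios) belongs to the Ikaros family of zinc-finger proteins, which bind sites with a GGGAA core.

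A set of 5 shared regions is written out to show what such DNA looks like. Among them, 3 were of those with the highest signal, and the others belong to listed neighbouring pairs. Letters are those of the plus strand from RefSeq promoter windows of GRCm38.p6, whose coordinates are those of mm10. Capitals mark matches, on either strand, to the ETS, SP1, CCAAT, YY1, cyclic AMP response element, NRF1 and Ikaros motifs. Their letters are spelled out with the promoter comparison, and the other motifs named there are not marked. Whether deposited starts count from 0 or 1 is not stated, so the first base may be off by 1. The regions, in the order written, are chr19:5663666-5663769, chr7:27447841-27447968, chr5:135778539-135778631, chr1:55087883-55088119 and chr9:53536934-53537025.
Pcnx3/Sipa1: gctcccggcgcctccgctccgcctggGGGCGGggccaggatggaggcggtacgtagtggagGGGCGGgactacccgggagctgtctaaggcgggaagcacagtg
Blvrb/Sptbn4: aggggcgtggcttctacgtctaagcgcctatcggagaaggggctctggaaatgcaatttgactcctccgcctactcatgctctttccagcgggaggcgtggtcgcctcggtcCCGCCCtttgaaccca
Mdh2/Styxl1: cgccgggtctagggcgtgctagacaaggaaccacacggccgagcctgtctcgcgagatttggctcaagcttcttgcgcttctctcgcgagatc
Hspd1/Hspe1: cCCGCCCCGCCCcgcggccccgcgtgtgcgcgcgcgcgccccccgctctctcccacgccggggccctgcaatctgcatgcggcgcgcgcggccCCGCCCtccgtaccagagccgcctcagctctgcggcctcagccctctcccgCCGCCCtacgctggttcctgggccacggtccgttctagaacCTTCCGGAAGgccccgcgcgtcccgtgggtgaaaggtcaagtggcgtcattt
Atm/Npat: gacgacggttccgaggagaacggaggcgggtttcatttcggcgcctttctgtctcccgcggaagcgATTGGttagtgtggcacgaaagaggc

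All 5 were rich in G and C, from 59.8% at Atm/Npat to 75.1% at Hspd1/Hspe1. The Hspd1/Hspe1 region held 34 CpG dinucleotides, 4 SP1 boxes and a palindromic ETS site that matched on both strands. The Pcnx3/Sipa1 region held 2 SP1 boxes, and the Blvrb/Sptbn4 region held 1. The Atm/Npat region held 1 inverted CCAAT box. The Mdh2/Styxl1 region held none of the motifs that the capitals mark.

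Shared regions carried more signal than single-gene regions in every library, by a small margin. A region's signal was its read count scaled to the library's total in all regions (CPM), per kb of region. Mean signal over the shared regions was 67.4, 77.8 and 65.6 CPM per kb in libraries 1, 2 and 3, or 70.2 ± 6.61 (SD, n = 3). Single-gene regions averaged 61.0, 67.7 and 60.6, or 63.1 ± 3.95. Regions near no gene end averaged 50.97, 49.98 and 51.08, or 50.7 ± 0.606. The log2 ratio of shared to single-gene regions was 0.14, 0.20 and 0.11, or 0.15 ± 0.045, which is 1.11-fold. It was above 0 in 3 of 3 libraries, and the exact two-sided sign-flip permutation test gave p = 0.25, the smallest that 3 libraries allow. Adjusted over the 19 comparisons between classes of regions, this was 0.317, so none of the 19 could pass 0.05.

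Shared regions were also more often among the strongest. The top 10% of eligible regions by mean signal had at least 63.5 CPM per kb, and by construction 10.0% of all regions were in it. It took in 604 of 1260 shared regions (47.9%), 2815 of 8609 single-gene regions (32.7%) and 8.13% of regions near no gene end. Within single libraries the shares were 21.9, 30.8 and 22.5% of shared regions against 18.4, 23.5 and 18.7% of single-gene regions. The difference was 3.48, 7.31 and 3.80 percentage points, or 4.86 ± 2.12 (n = 3; exact sign-flip permutation p = 0.25). The margin of 1 kb itself marked no step: 98 regions whose second gene end lay 900 to 1000 bp away averaged 58.8 ± 4.68 CPM per kb, and 87 regions with it 1001 to 1100 bp away averaged 61.6 ± 3.53.

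The signal followed which ends of the genes were near. Strand, and with it the start and the tail (the 3′ end) of each gene, was known for every gene of 957 shared regions (76.0%). Of these, 570 lay near 2 starts, 247 near a start and a tail, and 126 near 2 tails, and the rest lay near 3 or 4 genes. Regions near 2 starts had 71.4, 83.9 and 68.1 CPM per kb in the 3 libraries (74.5 ± 8.35). Regions near a start and a tail were close below at 67.0, 79.7 and 67.4 (71.4 ± 7.21), and the ranges of these 2 classes overlapped. Regions near 2 tails had 47.2, 50.2 and 50.9 (49.4 ± 1.94), about the level of regions near no gene end and below every library of the other 2 classes.

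The ratio of 2-start to 2-tail regions was 0.59 ± 0.161 on the log2 scale (1.501-fold, higher in 3 of 3 libraries, exact sign-flip permutation p = 0.25, n = 3). The same contrast was seen among single-gene regions, where 4920 regions near 1 start had 68.5 ± 6.01 and 2056 near 1 tail had 51.2 ± 0.671 (log2 ratio 0.42 ± 0.132). By share in the top 10%, 58.8% of 2-start, 42.5% of start-and-tail and 7.94% of 2-tail regions were included, against 43.3% of 1-start and 8.85% of 1-tail regions. A second start went with 0.12 ± 0.037 more on the log2 scale than 1 start alone, in 3 of 3 libraries. A second tail went with -0.05 ± 0.043 relative to 1 tail, lower in 3 of 3 libraries by means. By medians over regions it was -0.035 ± 0.076, and in library 3 the 2-tail median was the higher (50.5 against 49.3 CPM per kb). The excess of shared over single-gene regions was thus not seen at tails, and no clear difference in either direction was.

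**Figure D1:**
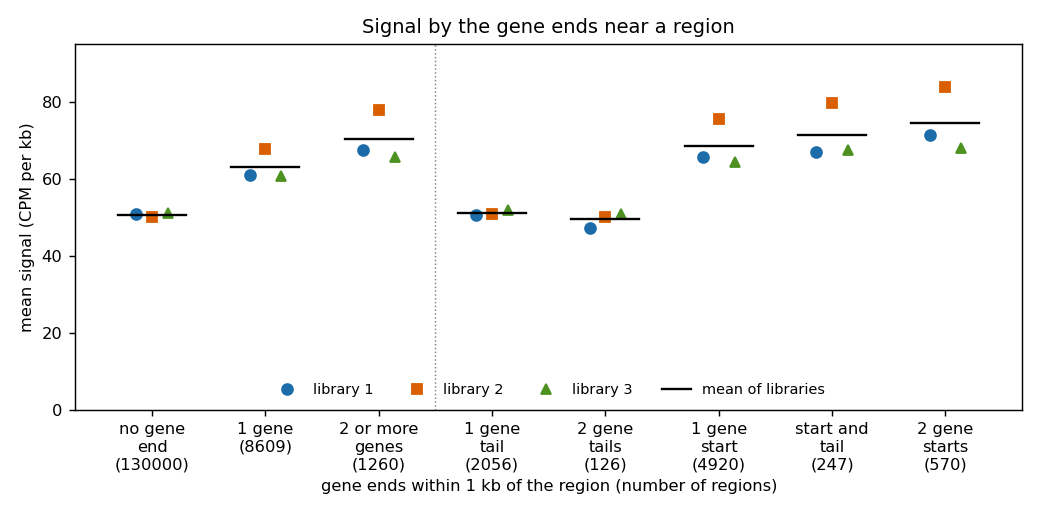
Mean signal in CPM per kb (vertical axis, from 0) of regions grouped by the gene ends within 1 kb, with the number of regions on the horizontal axis; points are the 3 libraries and bars their mean. Regions near 2 tails sit at 49.4 CPM per kb, at the level of regions near no gene end (50.7), and regions near 2 starts are highest at 74.5.

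Shared regions and single-gene regions differed in how close they lay to a start. Among 2-start regions 324 of 570 (56.8%) overlapped a start, and among 1-start regions 1665 of 4920 (33.8%) did. When only regions overlapping a start were compared, 2-start regions had 77.5, 89.3 and 70.3 CPM per kb (79.0 ± 9.57) and 1-start regions had 75.8, 91.5 and 73.7 (80.3 ± 9.71). Their log2 ratio was 0.031, -0.035 and -0.068 in the 3 libraries, or -0.02 ± 0.050 (exact sign-flip permutation p = 0.5, n = 3), so the difference was smaller than the spread between libraries. This subset was chosen after the data had been seen.

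Beyond 100 bp from a start the signal was lower in both classes. For 2-start regions it was 81.0 ± 9.57 at 1 to 100 bp from the nearest start, 66.2 ± 17.7 at 101 to 250 bp, 66.8 ± 6.94 at 251 to 500 bp and 57.3 ± 1.70 at 501 to 1000 bp. For 1-start regions it was 75.8, 65.3, 59.7 and 55.1 over the same distances. Away from the start itself, the 2-start regions were higher in 3 of 3 libraries at 1 to 100 bp (log2 ratio 0.095 ± 0.043) and at 251 to 500 bp (0.16 ± 0.069). At 101 to 250 bp, where 36 regions near 2 starts lay, they were higher in 1 of 3 libraries, and at 501 to 1000 bp in 2 of 3.

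**Figure D2:**
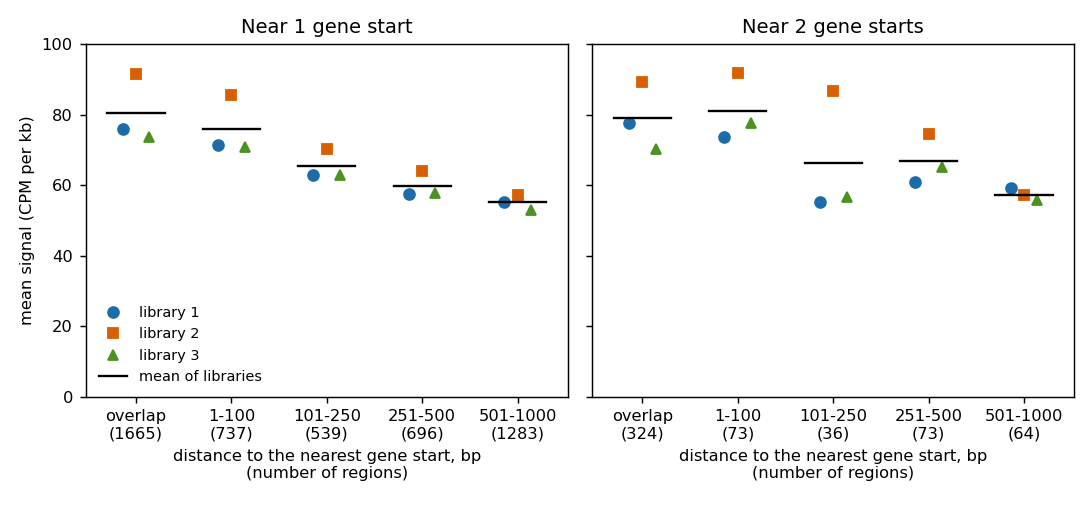
Mean signal in CPM per kb against the distance in bp from a region to the nearest gene start, for regions near 1 start (left) and 2 starts (right); points are the 3 libraries, bars their mean, and the number of regions stands under each distance. Regions that overlap a start average 80.3 with 1 start and 79.0 with 2 starts, and those 501 to 1000 bp away average 55.1 and 57.3.

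Width entered the measure, since CPM was divided by it. The log2 ratio of 2-start to 1-start regions was 0.28 ± 0.106 among regions up to 100 bp wide, 0.13 ± 0.059 at 101 to 120 bp, 0.03 ± 0.061 at 121 to 150 bp, 0.04 ± 0.031 at 151 to 200 bp and 0.12 ± 0.045 at 201 to 300 bp. It was above 0 in 3 of 3 libraries in every width class except 121 to 150 bp, where it was above 0 in 2 of 3.

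The arrangement of the 2 genes gave the same order as the kind of end. Head-to-head pairs, which read away from each other, held 365 regions with 73.8, 83.9 and 70.5 CPM per kb (76.1 ± 7.01), and 225 of them (61.6%) were in the top 10%. Head-to-tail pairs held 213 regions with 73.4 ± 7.95 and 46.0% in the top 10%. Tail-to-tail pairs held 75 regions with 52.1, 47.1 and 50.1 (49.8 ± 2.53), and 5 of them (6.67%) were in it. Where the gene spans overlapped (290 regions), the mean was 66.1 ± 8.79.

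Within overlapping pairs the kinds of end again differed. The 202 regions near 2 starts had 71.5 ± 10.7 CPM per kb, the 35 near a start and a tail had 60.5 ± 6.29, and the 53 near 2 tails had 49.2 ± 6.68.

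In head-to-head pairs the position relative to the starts separated the regions. Those that touched the stretch between the starts (246 regions) had 78.9, 89.2 and 73.0 CPM per kb (80.4 ± 8.17), with 72.4% in the top 10%. Those that lay wholly off that stretch (119 regions) had 63.2, 73.2 and 65.4 (67.2 ± 5.27), with 39.5% in it. The log2 ratio was 0.26 ± 0.084, higher in 3 of 3 libraries (exact sign-flip permutation p = 0.25, n = 3). By the distance between the 2 starts, the mean was 75.72 ± 8.995 at a gap of up to 100 bp (182 regions), 74.8 ± 4.45 at 101 to 250 bp (110), 77.0 ± 4.31 at 251 to 500 bp (51) and 83.5 ± 12.9 at 501 to 1000 bp (18). The first 3 means lay within each other's spread between libraries, and the last, over 18 regions, was above them in libraries 1 and 2 but not in library 3.

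Among the strongest shared regions was that at Pcnx3, a pecanex family member, and Sipa1, a GTPase-activating protein for Rap (chromosome 19, 5663666 to 5663769). In libraries 1 to 3 its reads were 10, 6 and 2 in the first technical replicate, against 37, 48 and 48 in the second, or 272.4, 333.9 and 233.2 CPM per kb (280 ± 50.7). All 3 values lay above the top 10% limit of each single library (84.5 to 91.0 CPM per kb).

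Other strong regions differed in how closely their libraries lay. Rhot2/Wdr90, where Rhot2 encodes a GTPase of the outer mitochondrial membrane, had 95.5, 242.0 and 312.3 CPM per kb (217 ± 111), with library 1 far below the others. Aldoc/Spag5, a glycolytic aldolase beside a mitotic spindle protein, was steadier at 223.2, 199.4 and 179.6 (201 ± 21.8). Dazap1/Gamt, an RNA-binding protein and an enzyme of creatine synthesis, had 129.8, 228.4 and 240.2 (199.5 ± 60.7).

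A further 7 pairs followed. Blvrb/Sptbn4 (193 ± 58.9) holds a biliverdin reductase, and Mdh2/Styxl1 (174 ± 105) the mitochondrial malate dehydrogenase. Catsperz/Esrra (184 ± 93.1) holds the oestrogen-related receptor alpha. Dgkq/Idua (174 ± 51.4) holds a diacylglycerol kinase and a lysosomal iduronidase. The others were Brpf1/Cpne9 (179 ± 49.0), with a chromatin scaffold protein, Usb1/Zfp319 (174 ± 53.1), with an exonuclease that trims U6 RNA, and Cep170/Sdccag8 (174 ± 39.2), which both encode centrosomal proteins. These 7 means lay within 1 SD of each other, so their order carries no weight. Mdh2/Styxl1 had 188.2, 62.3 and 271.5 CPM per kb and was in the top 10% of libraries 1 and 3 only. Catsperz/Esrra had 77.0, 246.5 and 228.6 and was in that of libraries 2 and 3 only.

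At the low end, Ncbp2/Senp5 had 51.7, 32.2 and 12.1 CPM per kb (32.02 ± 19.79), from 24, 14 and 7 reads. Leng8/Leng9, a tail-to-tail pair, had 34.1, 27.3 and 36.6 (32.7 ± 4.82). Eno2/Lrrc23, where Eno2 encodes a neuronal enolase, had 38.0, 23.9 and 41.4 (34.4 ± 9.30). None of these 3 reached the top 10% in any library. They are the lowest among pairs with a read in every library, and 22 shared regions had none in at least 1 library.

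**Figure D3:**
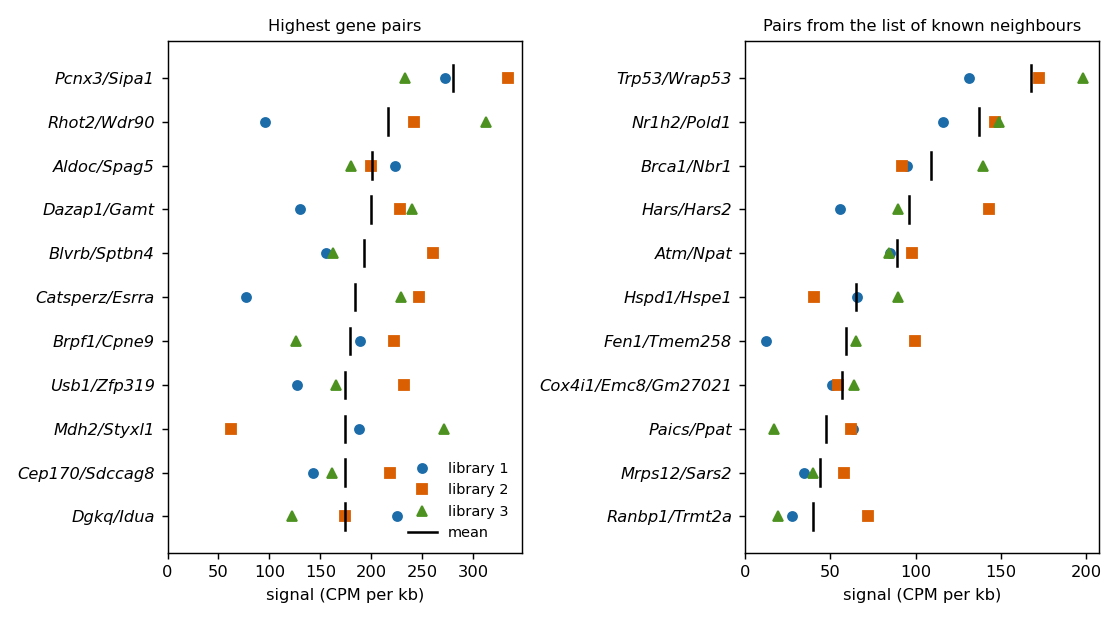
Signal in CPM per kb (horizontal axis, from 0) at shared regions among the highest (left) and at the listed neighbouring pairs (right), 1 row per gene pair; points are the 3 libraries and bars their mean. Pcnx3/Sipa1 spans 233.2 to 333.9 CPM per kb and Ranbp1/Trmt2a, at the lower end, spans 19.2 to 72.2.

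A list of 23 well-known neighbouring gene pairs was looked up, in any arrangement of their ends. Of these pairs, 12 had a shared region, 3 had single-gene regions only, and 8 had no region within 1 kb. Each pair is given by its higher shared region. On that basis 7 of the 12 were in the top 10% by mean signal, against 575 of all 1092 gene sets (52.7%) by their highest region. In the top 10% of every library were 3 of the 12, Trp53/Wrap53, Brca1/Nbr1 and Nr1h2/Pold1, against 75 of all 1092 gene sets.

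Trp53, the p53 tumour suppressor, and Wrap53, which guides telomerase RNA, shared the strongest of them with 131.4, 172.4 and 198.3 CPM per kb (167 ± 33.7). Nr1h2, a liver X receptor, and Pold1, the catalytic subunit of DNA polymerase delta, followed at 116.2, 146.5 and 148.8 (137 ± 18.2), as a start and a tail in head-to-tail order. Brca1, of homologous recombination repair, and Nbr1, an autophagy receptor, had 95.2, 92.3 and 139.3 (109 ± 26.3). None of these 3 regions fell below the top 10% limit in any library. Trp53/Wrap53 and Brca1/Nbr1 each had a second, weaker shared region, at 43.8 ± 8.31 and 65.7 ± 6.14, which was in the top 10% of no library. The second one at Brca1/Nbr1 overlapped a start, while the stronger one lay 521 bp from the start nearest to it, that of the other gene. At Trp53/Wrap53 the stronger region lay 786 bp from the nearest start, outside the stretch between the starts, and the weaker one 395 bp from a start.

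Hars/Hars2, the cytosolic and mitochondrial histidyl-tRNA synthetases, had 55.8, 142.8 and 89.8 CPM per kb (96.1 ± 43.9). Atm/Npat, a DNA damage kinase and a regulator of histone genes, had 85.3, 98.0 and 84.5 (89.2 ± 7.58). Hars/Hars2 was thus in the top 10% of 2 libraries, while Atm/Npat, with the tighter spread, was in that of 1. That spread rested on 13, 14 and 16 reads, and the technical replicates differed more. The mean at Atm/Npat was 156.5 CPM per kb with technical replicate 1 alone and 76.3 with technical replicate 2 alone. Its library 3 value stood at the limit of that library (84.47).

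Hspd1/Hspe1, the mitochondrial chaperonin and its cofactor, had 65.8, 40.5 and 89.6 CPM per kb (65.3 ± 24.6). Fen1/Tmem258, with the flap endonuclease of replication, had 12.4, 99.5 and 65.1 (59.0 ± 43.9). Both reached the top 10% in 1 library. The remaining 4, Cox4i1/Emc8/Gm27021 (56.6 ± 6.68), Paics/Ppat of purine synthesis (47.5 ± 26.4), Mrps12/Sars2 (44.0 ± 12.3) and Ranbp1/Trmt2a (39.8 ± 28.4), reached it in none. The listed pairs therefore ranged from well above to below the mean of regions near no gene end. The regions at Fen1/Tmem258, Paics/Ppat, Mrps12/Sars2 and Ranbp1/Trmt2a lay 347 to 708 bp from the nearest start, so their values are not those of the starts themselves.

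The share of genes at a shared region differed between gene families, given here as counts without a test. Over all 20665 autosomal protein-coding genes, 2087 (10.1%) lay at one. The share was 24 of 78 mitochondrial ribosomal proteins (30.8%), 30 of 102 respiratory chain genes (29.4%), 10 of 36 aminoacyl-tRNA synthetases (27.8%) and 37 of 134 DNA replication and repair genes (27.6%). It was 24 of 101 RNA polymerase and Mediator genes (23.8%), 26 of 110 splicing and RNA processing genes (23.6%), 16 of 68 replication-dependent histones (23.5%), 10 of 48 proteasome genes (20.8%) and 14 of 80 cytosolic ribosomal proteins (17.5%). The zinc finger Zfp genes had 23 of 388 (5.93%), and the olfactory receptors had 0 of 1104.

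Gene spacing differed between the same families. Of all autosomal genes, 25.6% had an end within 1 kb of another gene's end, and of those 36.7% had a shared region. Among DNA replication and repair genes 57.5% had such a neighbour, and 48.1% of those had a shared region. Among mitochondrial ribosomal proteins 44 of 78 had a close neighbour and 22 of those 44 a shared region, and the values were 55.9% and 52.6% among respiratory chain genes. Histone genes stood closest (66.2%), with a shared region at 31.1% of those, and 14.4% of Zfp genes and 0.815% of olfactory receptors had a close neighbour.

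Median signal at shared regions was above that of all shared regions (62.2 CPM per kb) in every family that had such regions. It ran from 62.5 for cytosolic ribosomal proteins to 84.9 for histones. Single-gene regions of these families were also more often in the top 10% (39.6 to 55.6%) than all single-gene regions (32.7%). By share in the top 10%, where 47.9% of all shared regions fell, the families ranged from 9 of 18 regions for cytosolic ribosomal proteins and 5 of 10 for tRNA synthetases to 28 of 44 for DNA replication and repair, 8 of 12 for the proteasome and 7 of 10 for histones. DNA replication and repair genes averaged 75.1 ± 12.1 CPM per kb over 44 regions. Family means ran from 69.0 ± 6.83 for cytosolic ribosomal proteins to 81.8 ± 1.72 for respiratory chain genes, against 70.2 ± 6.61 over all shared regions. These values describe lists of unequal size and overlapping ranges, and no family was tested against the others.

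The highest shared region of most families is given next. Among Zfp genes it was Usb1/Zfp319, described above. Among the listed DNA replication and repair genes it was Xrcc3/Zfyve21, with a recombination protein, at 137.8, 137.2 and 155.2 CPM per kb (143 ± 10.3). Mrpl43/Twnk, a mitochondrial ribosomal protein beside the mitochondrial DNA helicase, had 97.5, 207.9 and 137.3 (148 ± 56.0). Both were in the top 10% of all 3 libraries, the first with close libraries and the second with library 2 above the others.

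Med19/Tmx2, with a Mediator subunit, had 152.3, 162.5 and 98.1 CPM per kb (138 ± 34.6). Exosc4/Gpaa1/Oplah, at which 3 genes end and which includes a subunit of the RNA exosome, had 202.7, 120.2 and 77.1 (133 ± 63.9). Bpnt1/Iars2, with the mitochondrial isoleucyl-tRNA synthetase, had 88.0, 221.2 and 65.7 (125 ± 84.1). The last of these rested on 60 reads, all from the second technical replicates, and reached the top 10% in library 2 only.

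Pidd1/Rplp2, a p53-induced protein beside a ribosomal stalk protein, had 130.1, 89.8 and 117.0 CPM per kb (112 ± 20.6). Psme2/Rnf31, a proteasome activator subunit beside a ubiquitin ligase, had 124.0, 91.0 and 120.6 (112 ± 18.2). H2ac10/H3c8, a pair of histone genes, had 152.8, 96.8 and 84.6 (111 ± 36.4). These 3 pairs had nearly the same mean and differed from each other by less than their spread.

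The composition of promoters was compared between sets of genes. Each gene's promoter was taken as the 300 bases from 250 before to 50 after its start. The 610 windows of head-to-head genes at a shared region had 61.4 ± 7.71% G and C (SD over windows) and 24.0 CpG dinucleotides on average. The 3992 windows of genes with a 1-start region and no shared region had 58.9 ± 9.81% and 18.7 CpG, and all 16457 windows had 56.2 ± 11.7% and 15.7 CpG. The 129 windows of tail-to-tail genes at a shared region had 60.1 ± 8.39% and 18.2 CpG. These windows too lie at the starts of the genes, whereas the ends that face each other are tails. They therefore do not describe the DNA of the tail-to-tail shared regions. The sets differed by less than the SD over windows within any of them in G and C. Windows of a head-to-head pair can overlap and then hold the same letters, so they are not independent and were not tested.

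Motif matches were counted on either strand as exact letters. The ETS site (CCGGAAG) was in 27.7% of head-to-head windows, 16.9% of 1-start windows and 12.3% of all windows. The SP1 box (GGGCGG) was in 68.7, 59.7 and 47.3% of the same 3 sets, and the CCAAT box (CCAAT) in 45.2, 40.1 and 39.1%. The YY1 site (AAGATGGC) was in 10.3, 4.41 and 3.21%, so of the 3 sets the head-to-head windows held the largest share of each of these 4 motifs. In the 129 tail-to-tail windows, which lie at the starts of those genes, the CCAAT share was 46.5%, above that of head-to-head windows.

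The same order held for 4 other motifs. The cyclic AMP response element (TGACGTCA) was in 5.08, 3.21 and 2.40% of head-to-head, 1-start and all windows, and the NRF1 core in 4.10, 2.03 and 1.37%. A shorter form of the NRF1 site (TGCGCATGC), which overlaps the core, was in 4.26, 3.26 and 2.07%, and the E-box (CACGTG) in 10.7, 9.62 and 7.97%. The TATA box (TATAAA) went the other way, with 4.75% of head-to-head windows against 9.67 and 13.5%.

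The Ikaros site (TGGGAA), which holds the core that the Ikaros family binds, was in 21.3% of head-to-head windows, 24.2% of 1-start windows and 24.0% of all windows. It was thus no more frequent in head-to-head windows than in the other 2 sets. In tail-to-tail windows, which lie at the genes' starts and not at the shared tails, its share was 31.0%. On the gene's own strand that share was 10.85%, against 11.5% of head-to-head and 12.8% of all windows. In head-to-head windows whose shared region was in the top 10% the Ikaros share on either strand was 22.5%, against 18.8% where the region was not. The ETS share was 28.2 and 26.6% in the same subsets. RUNX (TGTGGTTT) and CEBP (TTGCGCAA) sites were in under 2% of windows in each set. A match describes letters in a window and says nothing of binding, and a count of matches within the regions themselves was void because the windows cover 36.3% of them.

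**Figure D4:**
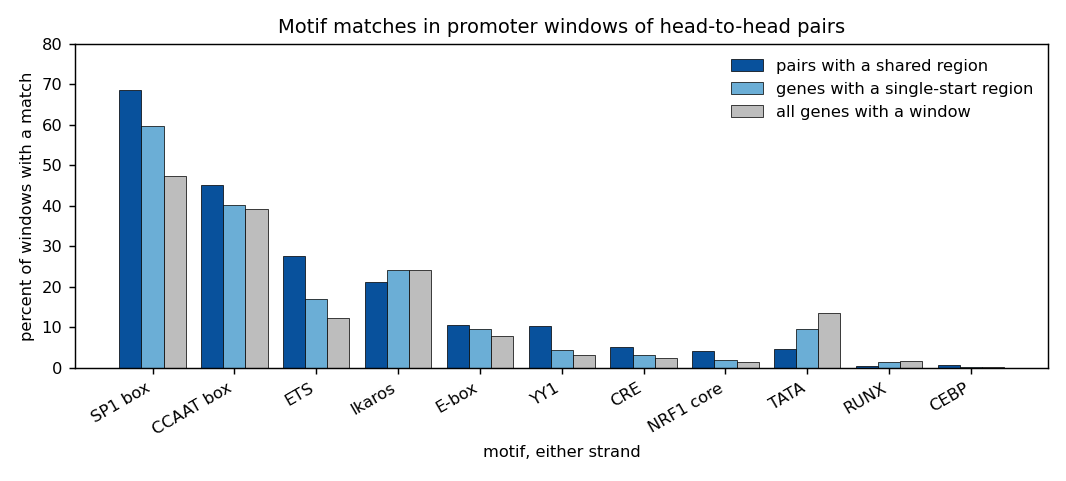
Percent of 300-base promoter windows with a match to each motif on either strand (vertical axis, from 0), for head-to-head genes at a shared region, genes with a 1-start region and no shared region, and all protein-coding genes. The ETS site is in 27.7, 16.9 and 12.3% of the 3 sets and the Ikaros site in 21.3, 24.2 and 24.0%.

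The libraries often differed in which shared regions they placed high. Of the 1260, 76 (6.03%, in 75 gene sets) were in the top 10% of each of the 3 libraries, against 0.587% of all eligible regions and 381 of 8609 single-gene regions (4.43%). Another 12.3% were in it in 2 libraries (8.99% of single-gene regions and 1.60% of all), 32.5% in 1 library and 49.1% in none. Single-gene regions near 1 start had about the same shares as shared regions, 6.08% in all 3 libraries (299 of 4920) and 12.3% in 2. Of the 76, 41 lay near 2 starts, 22 near a start and a tail, 9 near a start and an end of unknown strand, and 4 near ends of unknown strand only. Of the 126 regions near 2 tails, 24 were in the top 10% of 1 library and 0 in that of 2 or more.

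**Figure D5:**
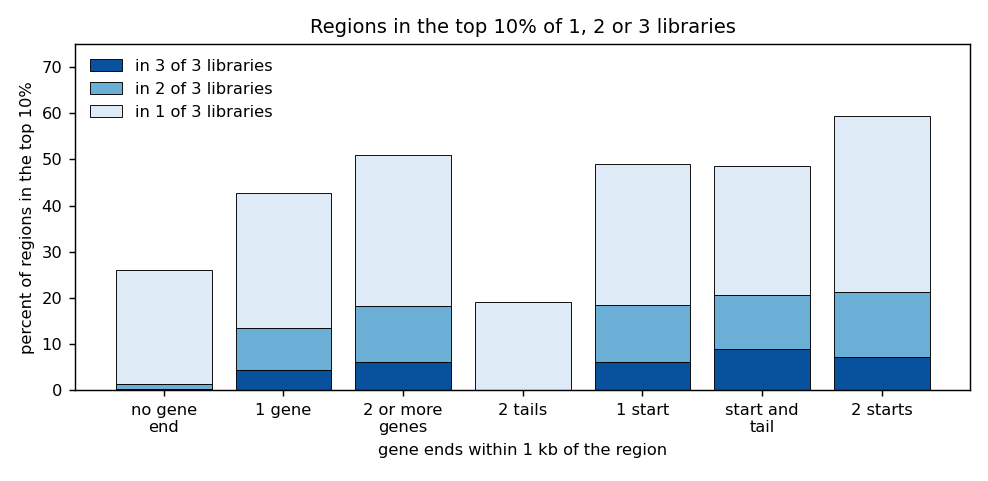
Percent of regions (vertical axis, from 0) in the top 10% of 1, 2 or 3 libraries, stacked, by the gene ends near the region. In all 3 libraries, regions near a start and a tail reach 8.91%, those near 2 starts 7.19% and those near 1 start 6.08%. Regions near 2 tails reach 0 in 2 or more.

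Few reads stood behind each region. The 3 libraries held 1675237, 1570251 and 2081455 reads in all regions, of which 21092, 22863 and 25616 fell in shared regions. A shared region held a median of 14, 15 and 17 reads per library (0 to 90). Technical replicate 1 contributed a median of 2 reads, with 28.1 to 29.9% of shared regions at 0, and technical replicate 2 a median of 12 to 15. The log2 ratio of shared to single-gene regions was above 0 in each of the 6 samples. It was 0.088, 0.203 and 0.023 over the first technical replicates and 0.153, 0.201 and 0.127 over the second ones.

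Region by region, technical replicates were compared by edgeR's quasi-likelihood test, blocked on library. Of 27452 regions that passed the filter on low counts, 71 (0.259%) had an adjusted p under 0.05, among them 1 of the 623 shared regions tested. At an unadjusted p under 0.05 it marked 97 of the 623 (15.6%), against 6.86% of all regions tested and 14.4% of single-gene regions tested. Of the 623, 552 were higher in technical replicate 2, which held most of the reads, as were 2671 of 3186 single-gene regions. Regions could pass the filter through that deeper replicate, so these counts over the tested regions support no difference between replicates at shared regions as a whole. That region lay at Gm527 and Gm51965, a pair of predicted genes (chromosome 12, 64917701 to 64917899), where the first technical replicates held 0, 0 and 0 reads and the second ones 27, 34 and 33 (edgeR, adjusted p = 0.00148). Against a floor of 3 reads over the 3 samples of technical replicate 1, its depth-scaled reads were 6.37-fold higher in technical replicate 2. Even counts were frequent, as when both mates are counted, so that ratio is not a strict lower bound. The call was lost with DESeq2 and when any 1 library was left out.

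Across the 3 libraries, allowing for the technical replicate, the same edgeR test called 4 of 27452 regions (0.0146%) and 0 of the 623 shared regions. At an unadjusted p under 0.05 it marked 12 of the 623 (1.93%) against 4.35% of all tested, and DESeq2 called 0. At these read counts, differences between libraries at single shared regions were not detectable, which does not show that the libraries were alike.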

How the data were processed

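The 6 anti-IKZF2 CUT&RUN samples were analysed. The authors deposited raw read counts per region, not normalized, over 1 set of regions common to all samples, in mm10. The submitters' processing notes name Bowtie2 2.3.3.1 and MACS2; what each did, and at which threshold, is not given in the sources used here. Read totals within regions are not sequencing depth. Even counts were frequent, as when both mates are counted, so counting error is understated.

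Technical replicates were summed per library and scaled to CPM per kb of region. Means and SDs are over 3 libraries. Gene ends were those of 21887 protein-coding genes in RefSeq GRCm38.p6. Strand came from RefSeq promoter windows for 17492 genes, none of them on chromosome 18. Classes were compared by log2 ratios of means within each library, with an exact sign-flip permutation test. edgeR 4.0.16 (R 4.3.3; filterByExpr, TMM, glmQLFTest, Benjamini-Hochberg) and DESeq2 1.42.0 tested regions, and the edgeR script was tested on simulated data. The library block follows the sample titles, which number the technical replicates within each library. Python 3.11.15, numpy 2.4.6, pandas 2.3.3 and scipy 1.17.1 did the rest.

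The members, gene lists and motifs were chosen with earlier results of these data known. Named pairs were the 12 highest, the 3 lowest with a read in every library, every listed textbook pair with a shared region, regions called by edgeR and the highest region of each family, 1 region per pair; some pairs that this rule names are not reported here. Alternatives covered gene window, width, scaling, filters, replicates and thresholds.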

Additional observations from a re-analysis of the deposited data

Results flagged for a closer look

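At Leng8/Leng9, a tail-to-tail pair, technical replicate 1 of library 2 had 0.0 CPM per kb, while the other 5 samples had 29.2 to 38.0. The value stood apart from the rest by Dixon's criterion for 6 samples (0.625). It was the only 1 of 39 values examined (named pairs and 3 ratios between classes) to do so, and chance gives about 1 in 20. That sample held 0 reads there, where the other samples of technical replicate 1 held 2.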

How the results depend on the processing

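The log2 ratio of shared to single-gene regions (0.15) kept its sign under all alternatives except where it was restricted, after the data had been seen, to tails (2 tails against 1 tail, -0.051) or to regions overlapping a start (-0.024). It was 0.105 with technical replicate 1 alone and 0.238 as CPM per region without division by width, and 0.13 to 0.17 without 1 library at a time. The difference in share of the top 10% within libraries (4.86 percentage points) was -4.04 and -1.91 under the same 2 restrictions. By mean signal, however, 70.1% of 2-start and 66.2% of 1-start regions overlapping a start were in the top 10%, so that sign depended on the measure. The difference within libraries was 7.89 for regions 150 to 300 bp wide, 1.80 with technical replicate 1 alone and 9.31 as CPM per region. It was 1.79 for the top 1%, and 3.64 to 5.55 without 1 library at a time. The remaining 18 and 15 alternatives moved these values by less than the spread between libraries, and the cause of the larger moves was not tested. TMM or size-factor scaling cannot change a ratio within a library, and the minimum of 10 reads removed no region. The share of shared regions in the top of every library was 2.94% at the top 5%, and the ETS share was 16.1% on the gene's own strand, a stricter count by construction. Between technical replicates, shared regions called numbered 1 without the replicate block and 1 with it, 0 with DESeq2, and 0 without any 1 library (0 to 0), while all regions called numbered 71, 56 with DESeq2, 46 without the block (of 9743 that then passed the filter), and 18, 0 and 8 without library 1, 2 and 3. Between libraries, 0 shared regions were called under every alternative. With about 15 reads per region and library, single regions are measured loosely.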
